A study of Homo sapiens with 6 samples.

Results

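The proteasome subunit genes were taken as all genes whose symbol in the deposited transcript assemblies begins with PSMA, PSMB, PSMC, PSMD, PSME, PSMF or PSMG and ends in a number. This rule found 47 genes among the 29018 genes with a value in at least 1 library, and it used no measured level. RNA sequencing had been done on HaCaT cells, an immortalised line of human keratinocytes, with 3 libraries per group: one group had received a PSENEN siRNA and the control group a mismatch siRNA. The product of PSENEN belongs to γ-secretase, a protease that cuts Notch and other proteins within the membrane. The labels give 100 pmol for the PSENEN siRNA, a lipid transfection reagent and the same medium for all cells, and they name extraction at both 48 and 72 h without saying which time was sequenced. All libraries come from 1 cell line, and the labels do not say whether the 3 libraries of a group were separate cultures, so the p-values measure the spread between these libraries, which may be technical.

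The proteasome is the protease complex that degrades ubiquitin-tagged proteins in the cytosol and nucleus. Its barrel-shaped core has outer rings of alpha subunits and inner rings of beta subunits, a few of which carry the cutting sites, and a regulatory particle of ATPases and non-ATPases binds, unfolds and feeds in the substrates. Interferon replaces the catalytic beta subunits by the immunoproteasome forms PSMB8, PSMB9 and PSMB10 and raises the activator PSME1 with PSME2, which alters the peptides offered on MHC class I, and keratinocytes are among the cells that can make these forms.

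Gene levels are TPM, the authors' measure of transcript abundance corrected for transcript length and scaled to a fixed library total, summed over the transcripts of a gene. Values of a group are given in the order of its libraries 1 to 3, and a change is the difference of group means of log2(TPM + 1), PSENEN siRNA minus mismatch siRNA, which understates changes of low genes. PSENEN itself (chr19:35745114-35747519, plus strand) stood at 1.75, 2.08 and 1.496 TPM with its siRNA and at 6.58, 12.6 and 7.47 TPM with the mismatch siRNA. The targeted gene was thus at 20.01% of the control mean, with no overlap between the groups (change -1.79, SE 0.25, limma adjusted p = 0.0471). This call was lost under 13 of 19 other ways of processing, each with the same direction. Estimated depth was 9.16 to 11.9 gigabases in PSENEN siRNA libraries and 11.5 to 15.6 gigabases in mismatch siRNA libraries. All 10 keratinocyte markers of a list had mean levels from 68.9 to 2518 TPM, while fibroblast, melanocyte, immune and endothelial marker sums stayed between 0 and 5.30 TPM in every library. The keratinocyte markers summed to 3643 to 4180 TPM in PSENEN siRNA libraries and 5374 to 8394 TPM in mismatch siRNA libraries, and their part in the results below was not tested. Most of these sums came from KRT14 (means of 1473 against 3563 TPM) and KRT5 (1177 against 2099 TPM). Of the 10 markers 8 had a negative change, and PERP (0.01) and LAMB3 (0.10) did not.

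No proteasome gene passed the test between the siRNAs, but most of the family had somewhat lower levels in PSENEN siRNA cells. The immunoproteasome subunits PSMB9 and PSMB8 came closest, at 62.0% and 72.0% of their control means. Of the 46 tested members, 36 (78.3%) had a negative change, against 56.6% of all genes tested. The median change was -0.16 over the members and -0.05 over all 16426 genes tested. Summed over the family, the level was 4009.8, 4275 and 4144 TPM with the PSENEN siRNA and 4865, 4661 and 4553 TPM with the mismatch siRNA. Every PSENEN siRNA library lay below every mismatch siRNA library in this sum, which came to 88.3% of the control mean. As a share of a library's TPM, the family took 0.441%, 0.474% and 0.457% in PSENEN siRNA libraries and 0.543%, 0.515% and 0.514% in mismatch siRNA libraries.

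The limma test, with Benjamini-Hochberg adjustment over all genes tested, called 0 members at an adjusted p under 0.05, against a background of 84 called genes (0.511%; 0.164% higher and 0.347% lower). At an unadjusted p under 0.05 there were 7 members (15.2%), a share near the 14.6% of all genes. All 7 were lower, where 9.98% of all genes were lower and 4.61% higher at that level. The groups did not overlap for 15 members (32.6%), against 22.3% of all genes: 13 were lower (28.3%, background 14.5%) and 2 were higher (4.35%, background 7.81%). The members that did not overlap on the lower side were PSMA5, PSMA6, PSMA7, PSMB2, PSMB5, PSMB7, PSMB8, PSMB9, PSMC2, PSMD8, PSMD9, PSME1 and PSMG4, and those on the higher side were PSMC4 and PSMD5. Some gaps were narrow, as for PSMA6 (highest PSENEN siRNA library 218.6 TPM, lowest control 219.2 TPM). By assembled bases (coverage times length, in ppm of the library), PSMA5, PSMA6, PSMB2, PSMB5, PSMC2, PSMD8 and PSMG4 did overlap. The others listed stayed apart on that scale, where PSME3 was apart as well. Members had a median SE of 0.14 against 0.20 for all genes. In bulk RNA, fewer cells that express a gene and less RNA per cell cannot be told apart.

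**Figure D1:**
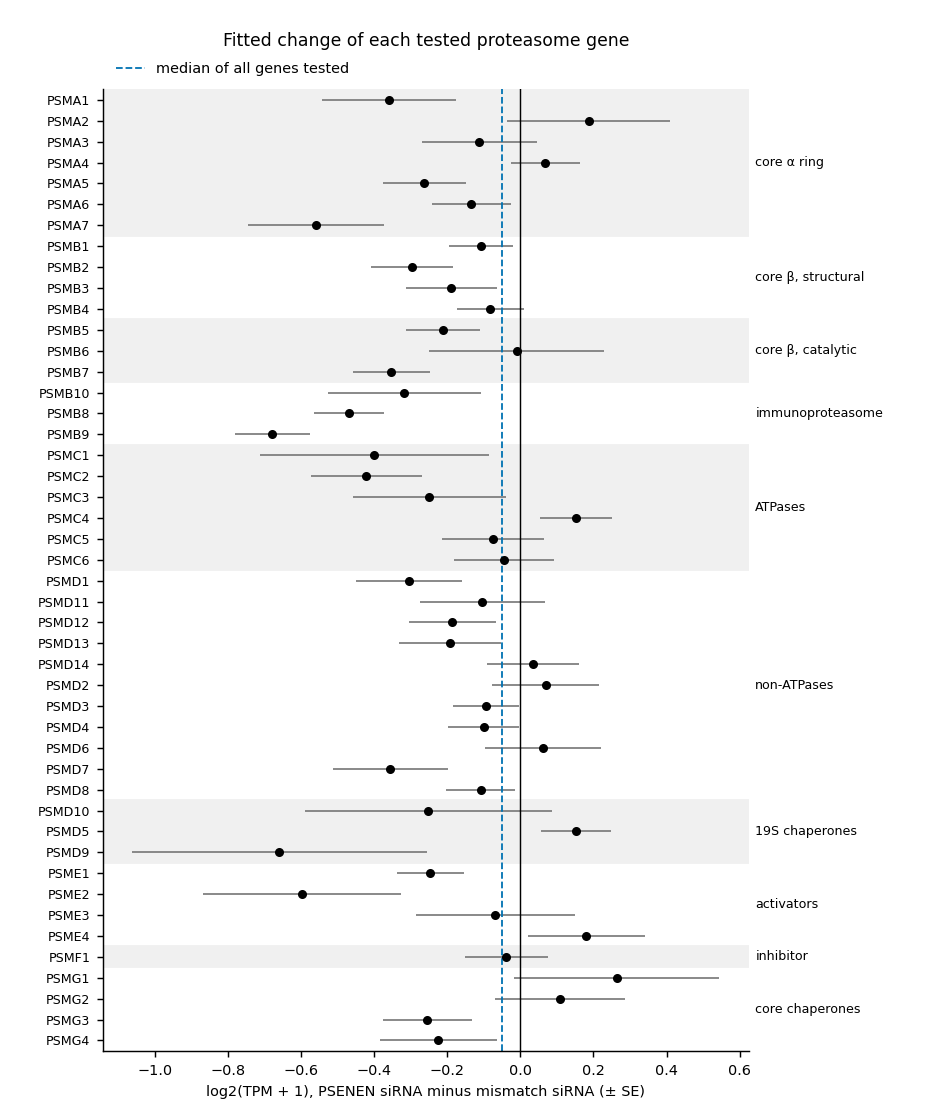
Fitted change (x axis, log2(TPM + 1), PSENEN siRNA minus mismatch siRNA) of each of the 46 tested proteasome genes, grouped by role, with bars of 1 SE from limma over 3 libraries a group. Most points lie left of 0 and of the dashed median of all genes tested (-0.05), and PSMB9 at -0.68 and PSMB8 at -0.47 lie far to the left with short bars.

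The order of the members by level was much the same in all libraries. Spearman's rho over the 47 genes, given as a description since the libraries share annotation and cell line, was 0.955 to 0.976 between libraries of a group and 0.9396 to 0.969 between libraries of different groups. At least a 2-fold range within a group was seen for 4 of the 46 tested members, PSMC1, PSMD9, PSMD10 and PSMG1.

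The alpha ring forms the gate of the core. PSMA7, its most abundant gene, was measured at 168, 282 and 226 TPM with the PSENEN siRNA and at 342, 315 and 321 TPM with the mismatch siRNA. All 3 PSENEN siRNA libraries were below the mismatch range, although they differed among themselves far more than the controls did (change -0.56, SE 0.19, limma adjusted p = 0.251). PSMA1 had 113, 180 and 122 TPM against 169, 185 and 168 TPM, and its groups overlapped through PSENEN siRNA library 2 alone (change -0.36, adjusted p = 0.429). PSMA2 was the alpha gene with the highest change, 0.19, at 55.4, 100.4 and 61.7 TPM against 56.6, 65.4 and 62.5 TPM. PSENEN siRNA library 2 was the only high value there, and without it the change was -0.07. The same library was thus the highest of its group for PSMA1, PSMA2 and PSMA7. PSMA4 had 260, 241 and 223 TPM against 240, 228 and 221 TPM, with overlap (change 0.07). PSMA5, the lowest alpha gene, had 16.5, 18.8 and 16.7 TPM against 20.6, 20.02 and 22.4 TPM, which did not overlap. PSMA3 and PSMA6 had changes of -0.11 and -0.13. The alpha genes together summed to 972 ± 124 TPM with the PSENEN siRNA and 1114 ± 23.7 TPM with the mismatch siRNA (SD, n = 3).

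Among the beta subunits without a cutting site, PSMB3 and PSMB4 were the most abundant genes of the whole family. PSMB3 had 353, 346 and 442 TPM with the PSENEN siRNA against 438, 459 and 399 TPM, and its groups overlapped. PSMB4 had 334, 345 and 382 TPM against 383, 382 and 357 TPM, also with overlap (change -0.08). PSMB2 had 64.7, 73.6 and 81.7 TPM against 89.6, 86.9 and 93.1 TPM, so that every PSENEN siRNA library was lower (change -0.30, SE 0.11, limma adjusted p = 0.301). PSMB1 had a change of -0.11 and overlapping groups.

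**Figure D2:**
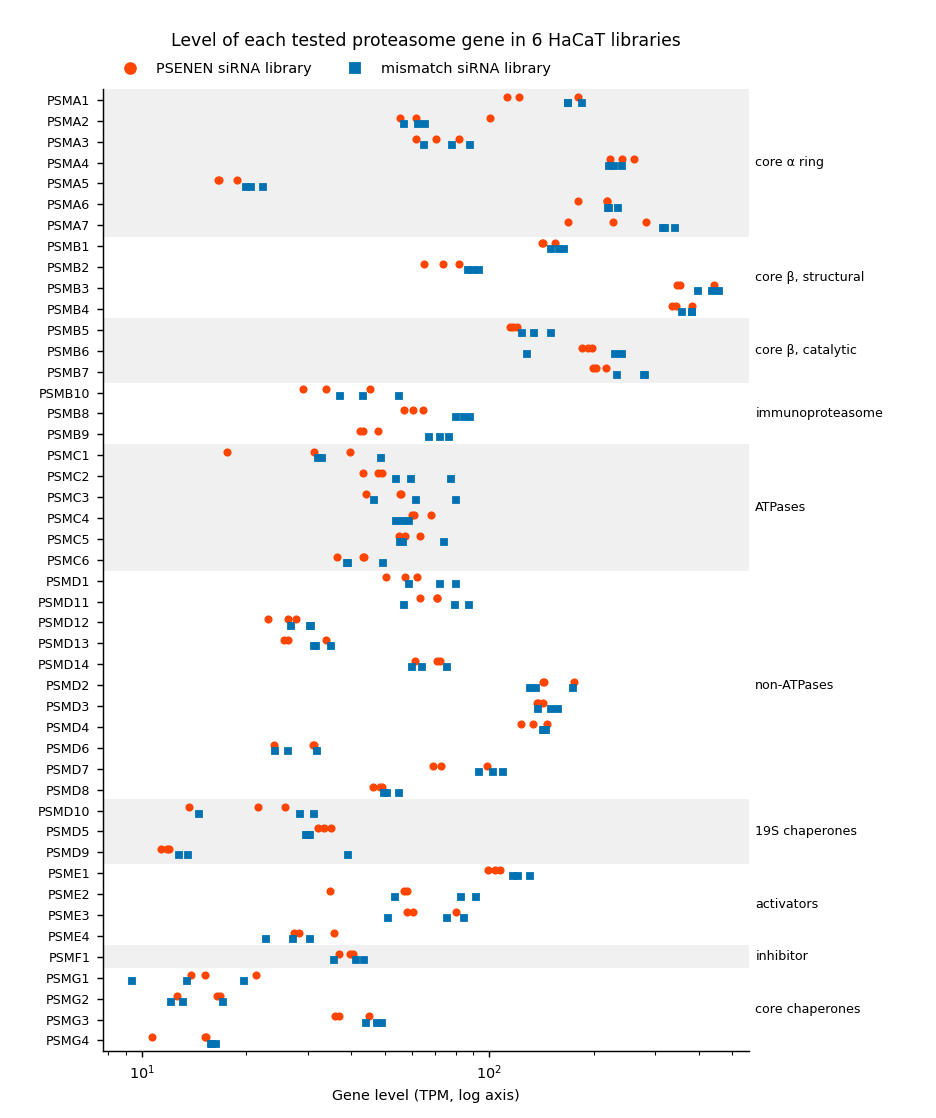
Level of each of the 46 tested proteasome genes (x axis, TPM on a log axis) in the 3 PSENEN siRNA libraries (circles) and the 3 mismatch siRNA libraries (squares), grouped by role. Core genes such as PSMB3 and PSMB4 lie to the right and assembly chaperones to the left, and the circles and squares do not overlap for 15 of the genes.

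The constitutive catalytic subunits carry the cutting sites of the ordinary core: PSMB5 the chymotrypsin-like, PSMB6 the caspase-like and PSMB7 the trypsin-like site. PSMB7 (chr9:124353466-124415444, minus strand) had 216, 203 and 199 TPM with the PSENEN siRNA and 280, 279 and 233 TPM with the mismatch siRNA. The groups did not overlap, and the PSENEN siRNA mean was 78.0% of the control mean (change -0.35, SE 0.11, limma adjusted p = 0.212). PSMB5 had 117, 120 and 115 TPM against 150, 135 and 124 TPM, again without overlap (change -0.21, adjusted p = 0.400). PSMB6 had 198, 192 and 184 TPM against 241, 128 and 230 TPM. Mismatch siRNA library 2 was the lowest of all 6 and the other controls the highest, so the groups overlapped, and the change of -0.01 was above 0 under 9 of 19 other ways of processing, among them other scalings.

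The immunoproteasome subunits replace these 3 one for one: PSMB8 for PSMB5, PSMB9 for PSMB6 and PSMB10 for PSMB7. PSMB9 (ENSG00000240065, chr6:32844136-32859585, plus strand) was measured at 48.0, 43.4 and 42.5 TPM with the PSENEN siRNA and at 66.9, 72.3 and 76.7 TPM with the mismatch siRNA. The highest PSENEN siRNA library was well below the lowest control, and the spread within each group was small (44.6 ± 2.94 against 72.0 ± 4.91 TPM, SD, n = 3). The change was -0.68 (SE 0.10), with a limma adjusted p of 0.0571, which misses the threshold. It passed with a stricter filter of 5 TPM (adjusted p = 0.0464) and with array weights (adjusted p = 0.0473), and over all 19 alternatives its adjusted p ranged from 0.0464 to 0.273. PSMB8 (ENSG00000204264, chr6:32840717-32844703, minus strand) had 64.3, 60.4 and 57.0 TPM against 87.7, 80.3 and 84.4 TPM. Its groups were also well apart (change -0.47, SE 0.10, limma adjusted p = 0.105), and its adjusted p ranged from 0.0932 to 0.305 over the alternatives. PSMB10 (ENSG00000205220, chr16:67934502-67937087, minus strand) had 45.5, 33.9 and 29.1 TPM against 55.1, 37.1 and 43.2 TPM. The groups overlapped (change -0.32, SE 0.21, limma adjusted p = 0.544).

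PSMB8 and PSMB9 lie side by side in the MHC region and overlap by 568 bases on opposite strands. PSMB9 as annotated also overlaps the peptide transporter gene TAP1 by 8770 bases on the opposite strand, and PSMB8-AS1, on the same strand as PSMB9, by 2360 bases. Whether the libraries keep strand is not given in the sources used here, so reads of the overlapping stretches cannot be told apart. PSMB8-AS1 itself had 4.54, 7.02 and 5.02 TPM against 8.26, 8.73 and 7.30 TPM, without overlap of the groups (change -0.49, limma adjusted p = 0.286). TAP1 had 22.9, 22.1 and 23.6 TPM against 42.0, 43.5 and 14.4 TPM, where mismatch siRNA library 3 was the lowest of all. In PSMB9, 1 annotated transcript held 97.4% of the TPM, and in PSMB8 1 transcript held 90.2%. That of PSMB9 starts 31 bases from position 32854192, past the ends of TAP1 (32853978), PSMB8-AS1 (32846495) and PSMB8 (32844703). That of PSMB8 starts at 32844047 on the minus strand, below the first bases of PSMB8-AS1 (32844086) and PSMB9 (32844136). Both transcripts thus lie outside the overlapping stretches. For PSMB10, 30.2% of the words of 31 bases in its annotated transcripts also occur in AC040162.1, an overlapping gene on the same strand. These shared words leave the level of PSMB10 uncertain, although AC040162.1 was listed at a mean of only 1.91 TPM. A share of at least 20% was also found for PSMA1, PSMA6, PSMC1 and PSMD9. For PSMA1, PSMA6 and PSMD9 the gene sharing most words was an overlapping one with no TPM in the deposited values. A gene that is absent from those values would look the same, so the shared words leave these levels uncertain too. Other members overlap genes on the opposite strand, among them PSME3, whose annotated span shares 8966 bases with the autophagy gene BECN1 (mean 25.6 TPM). That span of PSME3 starts at 42824385, while its most abundant annotated transcript starts 2 bases from 42833397.

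**Figure D3:**
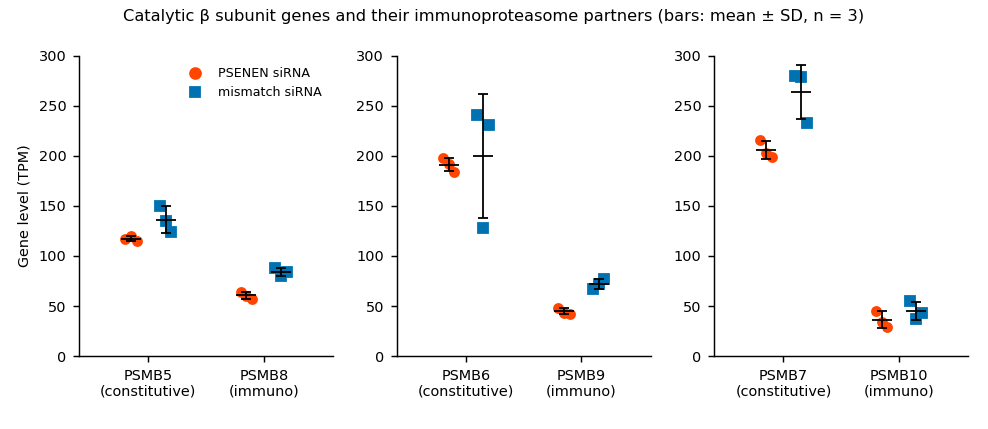
Levels (y axis, TPM) of the constitutive catalytic genes PSMB5, PSMB6 and PSMB7 and of the immunoproteasome genes PSMB8, PSMB9 and PSMB10 that replace them, in each library, with bars for the mean ± SD (n = 3 per siRNA). The groups are well apart for PSMB8 and PSMB9 and overlap for PSMB6 and PSMB10.

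The 3 immunoproteasome genes together summed to 157.7, 137.7 and 128.5 TPM with the PSENEN siRNA and to 209.8, 189.7 and 204.3 TPM with the mismatch siRNA. Their summed level was 70.2% of the control mean, against 85.7% for the 3 constitutive catalytic genes, 90.5% for the other beta genes and 87.2% for the alpha genes. The immunoproteasome share of the TPM of all 6 catalytic genes was 22.9%, 21.1% and 20.5% in PSENEN siRNA libraries and 23.8%, 25.9% and 25.8% in mismatch siRNA libraries. These shares did not overlap, with PSENEN siRNA library 1 closest to the controls. PSMB8 was 55.0%, 50.3% and 49.6% of PSMB5 with the PSENEN siRNA and 58.3%, 59.7% and 68.0% with the mismatch siRNA. The ratio of PSMB9 to PSMB6 was 24.3%, 22.6% and 23.0% against 27.8%, 56.4% and 33.3%, and the highest of these is the library with the low PSMB6. For PSMB10 relative to PSMB7, the range of 14.6% to 21.1% overlapped with that of 13.3% to 19.7% in the controls. Shares and ratios of this kind are descriptions and were given no test. PSMB11, the catalytic subunit of the thymus, was below the filter: it had 0.029 TPM in PSENEN siRNA library 2 and was listed at 0 in the other 5.

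Promoter letters were compared because the immunoproteasome and PSME1 with PSME2 are known interferon targets. RefSeq promoters (GRCh38.p14, 250 bases before to 50 after a start site) were matched for 41 of the 47 members, and 9 motifs were searched on both strands with the results above known. The core of the interferon-stimulated response element, taken as GAAA, any 2 bases and GAAA, occurred in 7 of the 50 promoters of these 41 genes (14%) and in 3.57% of all 34943 promoters, and each match was in a different gene. Those of PSMB8, PSMB10, PSME1 and PSME2 are shown because these genes belong to the interferon-inducible set, each as 60 bases in the direction of the gene with the match in capitals, on either strand. The PSMB8 window is chr6:32844017-32844076 (minus strand), that of PSMB10 is chr16:67936837-67936896 (minus strand), that of PSME1 is chr14:24136174-24136233 (plus strand) and that of PSME2 is chr14:24146604-24146663 (minus strand).
PSMB8: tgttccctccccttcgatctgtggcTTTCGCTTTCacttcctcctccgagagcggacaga
PSMB10: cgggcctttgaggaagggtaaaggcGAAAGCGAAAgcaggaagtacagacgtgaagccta
PSME1: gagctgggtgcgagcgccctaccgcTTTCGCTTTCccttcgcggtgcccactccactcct
PSME2: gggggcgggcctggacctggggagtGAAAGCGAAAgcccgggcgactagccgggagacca
All 4 carry the same 10 letters, read on one strand or the other. The remaining matches were in the promoters of PSMA4, PSMB4 and PSMG4. That of PSMG4, an assembly chaperone gene, had the same 10 letters too, so these letters were not limited to the interferon-inducible set. The matches of PSMA4 and PSMB4 differed in the 2 free bases. The letters of that core were not in the PSMB9 window of 300 bases, which says nothing of sites elsewhere.

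The other motifs were also described as letters only. The gamma-activated site TTCNNNGAA occurred in 7 of the 50 member promoters (14%) and in 7.66% of all promoters. The antioxidant response element core TGACNNNGC was in 30% and 13.3%, CCAAT in 40% and 34.6%, and the ETS motif CCGGAAG in 28% and 10.2%. GGGCGG was in 68% of member promoters and 44.9% of all, and TGANNNNGC, which every TGACNNNGC match also fits, in 62% and 41.8%. TGACGT was in 8% and 7.97%, and GGGA with CC after any 4 bases in 22% and 25.6%.

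The activators cap the core in place of the regulatory particle. PSME1, whose product pairs with that of PSME2 in the interferon-inducible activator, had 104, 107 and 99.0 TPM with the PSENEN siRNA and 117, 131 and 121 TPM with the mismatch siRNA. The groups did not overlap (change -0.25, SE 0.09, limma adjusted p = 0.288). PSME2 had 57.0, 58.1 and 34.9 TPM against 83.1, 91.5 and 53.7 TPM, and library 3 was the lowest of each group (change -0.60, SE 0.27, adjusted p = 0.378). The PSENEN siRNA mean of PSME2 was 65.7% of the control mean, but libraries 1 and 2 with the PSENEN siRNA were above library 3 with the mismatch siRNA. PSME3, an activator of the nucleus, had 80.3, 58.1 and 60.5 TPM against 75.6, 84.5 and 51.1 TPM, with a change of -0.07 that was above 0 under 5 of the 19 alternatives, quantile normalization and FPKM among them. By assembled bases (coverage times length, in ppm of the library) PSME3 had 79.3, 116 and 96.8 ppm against 159, 149 and 153 ppm, which did not overlap (change -0.67, limma adjusted p = 0.109). PSME4, a single large chain that caps the core, had 27.4, 35.8 and 28.3 TPM against 22.7, 27.2 and 30.6 TPM (change 0.18). The change of PSME4 was 1.20 by annotated transcripts alone, of which mismatch siRNA library 1 held 1.42 TPM beside 21.3 TPM assembled, and -0.08 by assembled bases. The inhibitor PSMF1 had 40.7, 39.7 and 37.0 TPM against 43.7, 41.4 and 35.8 TPM, with a change of -0.04 that turned above 0 under each of the 3 other scalings, FPKM, median of ratios and quantiles. Together PSME1 and PSME2 came to 77.1% of the control mean, a sum given with no test.

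The 6 ATPases unfold the substrate at the base of the regulatory particle. PSMC2 had 43.3, 49.2 and 47.7 TPM with the PSENEN siRNA and 77.3, 59.6 and 53.8 TPM with the mismatch siRNA. All PSENEN siRNA libraries were lower (change -0.42, SE 0.15, limma adjusted p = 0.278). PSMC4 went the other way, at 60.7, 59.9 and 67.8 TPM against 56.3, 53.9 and 58.8 TPM, with no overlap but a small gap (change 0.15, SE 0.10, adjusted p = 0.531). PSMC5 had 55.0, 57.2 and 63.0 TPM against 56.6, 55.5 and 74.0 TPM, and its change of -0.07 was above 0 with quantile normalization. It had the highest mean of the ATPase genes, 60.2 TPM, just above PSMC4 at 59.6 TPM. That rank depends on transcripts assembled without an annotated match, which held 34.5% of the TPM of PSMC5. Annotated transcripts alone gave 33.1, 33.8 and 38.7 TPM against 35.7, 33.5 and 61.7 TPM (change -0.25). PSMC1 varied from 17.6 to 39.8 TPM with the PSENEN siRNA and from 32.1 to 48.9 TPM with the mismatch siRNA. It shares 23.6% of its words with other genes, mainly with the pseudogene PSMC1P1, which was listed at 15.7 to 22.6 TPM, so that its level is uncertain. PSMC3 had a change of -0.25, which was -0.06 without mismatch siRNA library 3 and -0.44 without mismatch siRNA library 1, and PSMC6 had one of -0.05 that was above 0 under the 3 other scalings. As a sum, the ATPase genes stood at 290 ± 7.39 TPM against 325 ± 15.6 TPM (SD, n = 3).

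The 11 non-ATPase genes encode the scaffolds, ubiquitin receptors and deubiquitinase of the regulatory particle. PSMD2, a scaffold and the most abundant of them, had 143, 175 and 143 TPM with the PSENEN siRNA and 174, 136 and 131 TPM with the mismatch siRNA. It had the highest change of the class, 0.07, with overlapping groups. PSMD7, a lid subunit, had the lowest, at 72.6, 98.7 and 68.9 TPM against 109, 102 and 93.3 TPM (change -0.36, SE 0.16, limma adjusted p = 0.366). Its groups overlapped through PSENEN siRNA library 2. The deubiquitinase gene PSMD14 had 70.7, 61.1 and 72.1 TPM against 75.5, 59.9 and 64.0 TPM (change 0.03), and the ubiquitin receptor gene PSMD4 had 124, 134 and 147 TPM against 146, 143 and 144 TPM (change -0.10). PSMD8 was the only gene of the class without overlap, at 48.4, 46.2 and 49.2 TPM against 55.0, 50.8 and 49.7 TPM, a narrow gap. PSMD3, PSMD6, PSMD11, PSMD12 and PSMD13 had changes of -0.09, 0.06, -0.10, -0.19 and -0.19, all with overlap. The class summed to 831 ± 29.9 TPM against 894 ± 51.6 TPM (SD, n = 3), or 93.0% of the control mean. In each of the 6 libraries, the median level of the ATPase and non-ATPase genes was 28.0% to 35.6% of the median of the 14 constitutive core genes.

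Assembly chaperones do not remain in the finished complex. PSMG1 and PSMG2 form one pair that builds the alpha ring and PSMG3 and PSMG4 another. PSMG3 had 36.9, 36.0 and 45.0 TPM with the PSENEN siRNA and 49.1, 47.6 and 44.1 TPM with the mismatch siRNA, overlapping in 1 library of each group (change -0.25, limma adjusted p = 0.396). PSMG4 had 15.2, 10.7 and 15.4 TPM against 16.4, 16.0 and 15.8 TPM, which did not overlap. PSMG1 had the highest change of all members, 0.26, at 21.4, 15.2 and 13.9 TPM against 19.6, 9.40 and 13.5 TPM, and the groups overlapped (SE 0.28, adjusted p = 0.711). With 1 library left out the change of PSMG1 ranged from 0.02 (without mismatch siRNA library 2) to 0.51 (without mismatch siRNA library 1), and it was 1.17 by annotated transcripts alone and -0.67 by assembled bases. PSMG2 had a change of 0.11. Of the chaperones of the ATPase ring, PSMD5 had 32.2, 35.0 and 33.5 TPM against 30.4, 29.6 and 30.2 TPM, higher in all 3 PSENEN siRNA libraries (change 0.15, SE 0.09, adjusted p = 0.519). PSMD10 had 13.7, 21.7 and 25.8 TPM against 28.6, 14.7 and 31.4 TPM, with wide spread in both groups. PSMD9 had 11.3, 11.8 and 12.0 TPM against 13.6, 12.8 and 39.3 TPM, where mismatch siRNA library 3 was far above the rest (change -0.66, SE 0.40, adjusted p = 0.507). Without that library the change of PSMD9 was -0.16.

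For some members, part of the level came from transcripts that StringTie assembled without matching an annotated one, and this part differed between libraries. It was above 0 for 28 of the 47 members and reached 20% of the TPM for 9 of them. The largest share was that of PSMA4, 58.7%, so the level of PSMA4 is uncertain. In PSENEN siRNA library 1, 81.7 TPM of PSMA4 belonged to an assembled form of 208 bases. The change of PSMA4 was 0.01 by annotated transcripts alone and 0.03 by assembled bases. For PSMD9, 35.7 of the 39.3 TPM in mismatch siRNA library 3 belonged to an assembled transcript of 983 bases and 6 exons (chr12:121888784-121916549). Annotated PSMD9 transcripts held 3.55 TPM there and 11.3 to 13.6 TPM in the other 5 libraries. The main annotated form, ENST00000541212, is 2784 bases long and was listed at 0 in that library. Counted as assembled bases (coverage times length, in ppm of the library), PSMD9 stood at 30.8, 29.3 and 31.3 with the PSENEN siRNA and 33.5, 32.0 and 39.1 with the mismatch siRNA. On this scale, which does not divide by length, mismatch siRNA library 3 was still the highest but not apart from the rest.

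PSMD1, the largest scaffold of the base, had 57.1, 61.9 and 50.6 TPM with the PSENEN siRNA and 80.05, 72.0 and 58.9 TPM with the mismatch siRNA (change -0.30). In mismatch siRNA libraries 1 and 2, assembled transcripts held 70.4 and 69.7 TPM of it, while its annotated transcripts held 9.63 and 2.27 TPM. As assembled bases the gene had 185, 220 and 164 ppm against 177, 168 and 175, and the change was 0.12 instead. PSMD5 had a like replacement in PSENEN siRNA library 2, with 32.8 TPM assembled and 2.24 TPM annotated, and its change was 0.21 by assembled bases and -1.01 by annotated transcripts alone. For PSME2, annotated transcripts held 28.1, 30.4 and 34.9 TPM against 42.9, 33.4 and 53.7 TPM, so the groups overlapped by 1 library of each, and library 3 of each group had no assembled form. PSMB10 by annotated transcripts alone had 26.3, 22.1 and 23.7 TPM against 29.7, 37.1 and 31.9 TPM, which did not overlap (change -0.43, limma adjusted p = 0.258). By assembled bases the change of PSMB10 was -0.11. PSMB9 had an assembled form only in mismatch siRNA library 3, at 6.96 TPM, and its change was -0.63 by annotated transcripts and -0.61 by assembled bases. PSMB8 had no assembled form, and its change was -0.38 by assembled bases. In both genes the groups did not overlap on either of these scales.

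**Figure D4:**
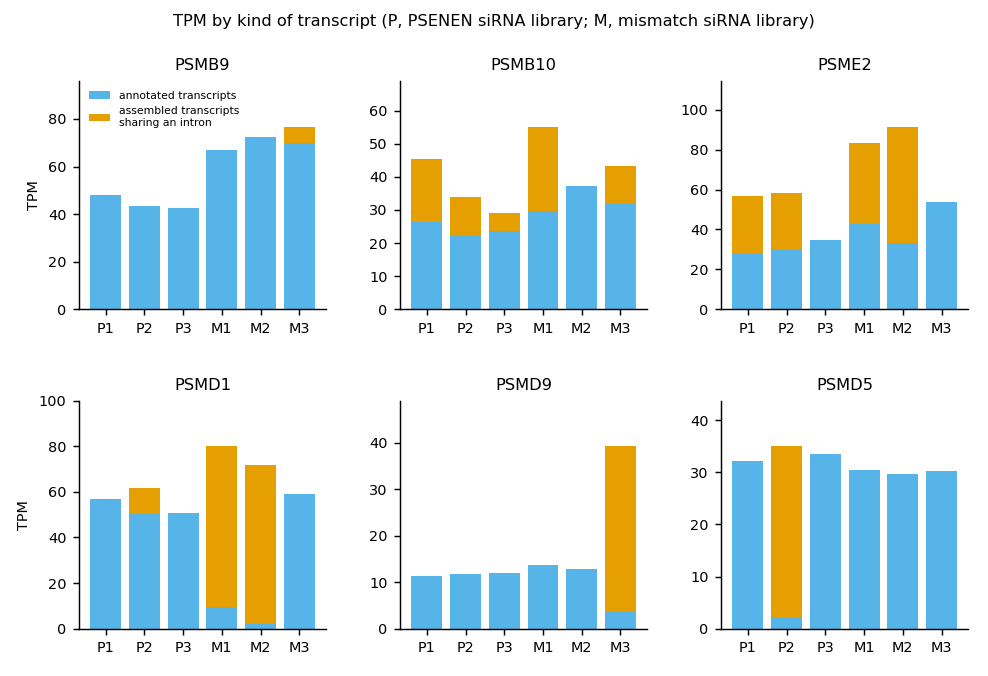
TPM (y axis) of 6 proteasome genes in PSENEN siRNA libraries 1 to 3 (P) and mismatch siRNA libraries 1 to 3 (M), divided into annotated transcripts (blue) and assembled transcripts that share an intron with the gene (orange). PSMB9 is nearly all annotated, while the assembled part takes most of PSMD1 in M1 and M2, of PSMD9 in M3 and of PSMD5 in P2.

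Other ways of processing moved the members' median change between -0.18 and -0.08 and the median of all genes between -0.07 and 0.01. The members' median was below that of all genes under each of the 19 alternatives, by 0.06 to 0.14, and between 31 and 36 members had a negative change. The smallest gap came without PSENEN siRNA library 2. A member was called under 2 alternatives, PSMB9 in each.

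**Figure D5:**
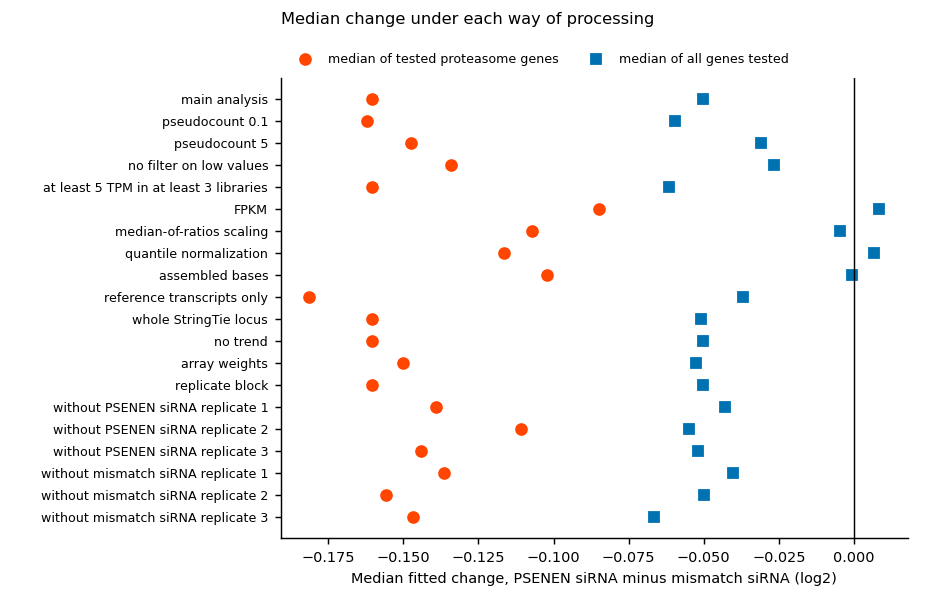
Median fitted change (x axis, log2, PSENEN siRNA minus mismatch siRNA) of the tested proteasome genes (circles) and of all genes tested (squares) in the main analysis and 19 alternatives. The circles lie between -0.18 and -0.08, left of the square in every line.

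The genes that work with the proteasome were given by 4 lists, and limma called 0 genes in each of them, at the same threshold and background. The partners (receptors, shuttles, deubiquitinases and further assembly factors) had 20 tested genes, 14 with a negative change and a median of -0.11. SHFM1, the small lid subunit, had the highest change of this list, at 33.8, 23.1 and 31.9 TPM with the PSENEN siRNA and 20.1, 22.1 and 18.8 TPM with the mismatch siRNA. It was higher in all 3 PSENEN siRNA libraries (change 0.50, SE 0.17, adjusted p = 0.248). PAAF1, a chaperone of the ATPase ring, had the lowest, at 5.60, 5.85 and 6.46 TPM against 7.10, 10.4 and 9.07 TPM, also without overlap (change -0.49, adjusted p = 0.259). The 17 regulators of proteasome genes had 11 negative changes and a median of -0.07. NFE2L1, the transcription factor that raises proteasome genes when proteasome activity is low, had 101, 96.7 and 88.3 TPM against 110, 113 and 194 TPM. All PSENEN siRNA libraries were lower, and mismatch siRNA library 3 stood far above the other 5 (change -0.49, adjusted p = 0.386). The change of NFE2L1 was -0.22 without that library, -0.12 by assembled bases and -1.15 by annotated transcripts alone. NFYB, a CCAAT-binding factor, had a change of 0.35 with overlapping groups.

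The 12 ubiquitin genes had 9 negative changes and a median of -0.08. UBE2D2, a ubiquitin-conjugating enzyme, had the highest change, at 28.6, 30.9 and 32.4 TPM with the PSENEN siRNA and 20.9, 14.7 and 9.79 TPM with the mismatch siRNA. The groups were apart (change 1.03, SE 0.25, limma adjusted p = 0.152). The polyubiquitin gene UBB, chosen after its values were seen, had 796, 719 and 696 TPM against 935, 1048 and 866 TPM (change -0.36, adjusted p = 0.212).

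The 9 interferon-linked partners of the immunoproteasome, which load peptides on MHC class I or regulate these genes, had 6 negative changes and a median of -0.37. IRF1, a transcription factor of the interferon response, had the lowest, at 24.9, 16.1 and 26.7 TPM with the PSENEN siRNA and 45.4, 44.1 and 24.2 TPM with the mismatch siRNA. Mismatch siRNA library 3 lay within the PSENEN siRNA range (change -0.70, SE 0.29, limma adjusted p = 0.345). TAPBP, which holds MHC class I at the peptide transporter, had the highest change, 0.64, at 25.2, 68.1 and 26.1 TPM against 21.6, 24.9 and 21.0 TPM, and PSENEN siRNA library 2 was far above the other 5. NLRC5, a transactivator of MHC class I genes that was chosen after its values were seen, had 9.83, 9.41 and 8.79 TPM against 19.5, 13.97 and 12.6 TPM (change -0.64, adjusted p = 0.190). Its groups did not overlap. In this list 2 of 9 genes did not overlap on the lower side, where 14.5% of all genes did not, and 1 (TAPBP) on the higher side, where 7.81% did not.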

How the data were processed

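The data are RNA sequencing libraries of HaCaT cells, 3 for each siRNA; cells given only transfection reagent, which the labels describe, were not analysed here. Per the file headers and source fields, each deposited file is a StringTie assembly of 1 library, in which the authors give TPM, FPKM and coverage per transcript as text attributes, an other kind of unit in the deposited column. The submitters' processing notes list Bowtie 0.12.2 with builds of the mouse genome (mm8, mm9), which do not match these human files. Read length, strandedness, aligner and StringTie version are not stated in those sources. Of 92476 annotated transcripts named in the files, 90704 (98.1%) sit where GENCODE 29 (GRCh38) puts them. TPM summed to 886394 to 909066 per library and was not rescaled.

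A gene's TPM was added up over its annotated transcripts and those assembled transcripts that share an intron with it and no better with another gene; this placed 71.8% to 74.9% of the TPM. The fit was limma 3.58.1 (R 4.3.3, trended variance) on log2(TPM + 1), for genes reaching 1 TPM in 3 or more libraries, with siRNA group alone in the model (4 residual df). Calls needed an adjusted p below 0.05 after the Benjamini-Hochberg procedure over all those genes, two-sided. For PSENEN, the exact two-sided permutation p was 0.1, the smallest possible with 3 against 3 libraries. Read counts are not among the deposited attributes; depth is an estimate from the ratio of coverage to FPKM, and counting intervals cannot be given. Sequence sharing is the percentage of words of 31 bases present in another GENCODE 29 gene. Scripts were tested on simulated data and ran in Python 3.11.15 (pandas 2.3.3, NumPy 2.4.6, matplotlib 3.10.9).

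Members, lists, alternatives and the naming rule were chosen with earlier results of these data known. The rule names, per class of members, the most abundant gene and those with the highest and lowest change; the catalytic pairs; members below the filter; per linked list, called genes or else the highest and lowest change; and PSENEN, in all 34 genes, of which 1 is not reported here. Further members are named to account for the family. The alternatives were pseudocounts of 0.1 and 5, no filter or 5 TPM, FPKM in place of TPM, scaling by median of ratios or by quantiles, assembled bases, reference transcripts only, whole StringTie loci, no trend, array weights, the replicate number as a block, and each library left out.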

Additional observations from a re-analysis of the deposited data

How the results depend on the processing

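Against 84 genes called in the main analysis, 133 were called with array weights and 147 by assembled bases, and 9 to 12 when 1 library was left out. Leaving out 1 library leaves a group of 2, and the lower count goes with fewer samples. The count of members called lower was 1 (PSMB9) with at least 5 TPM and with array weights and 0 under the other 17 alternatives, and no member was called higher under any. The change of PSENEN kept its direction but passed the threshold no longer at -1.01 with a pseudocount of 5, -1.79 with no filter or no trend, -1.28 with FPKM, -1.74 with median-of-ratios or quantile scaling, and -1.96 to -1.53 with each library left out; the cause was not tested.

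For 28 of the 46 tested members the sign of the change was the same under all 19 alternatives. The other 18 had 44 values of the opposite sign. Leaving out 1 library moved the change by over 1.5 times for 35 of the 46. By assembled bases the values of opposite sign were PSMB1 (0.00402), PSMB4 (0.00494), PSMB6 (0.0863), PSMD1 (0.116), PSME4 (-0.0787), PSMF1 (0.0993) and PSMG1 (-0.669). By reference transcripts only they were PSMB6 (0.0484), PSMD1 (2.07), PSMD2 (-0.163), PSMD4 (0.225), PSMD5 (-1.01), PSMD9 (0.390) and PSME3 (0.229). With FPKM they were PSMB6 (0.0618), PSMC6 (0.0251), PSME3 (0.00310) and PSMF1 (0.0315). Median-of-ratios scaling gave PSMB6 (0.0442), PSMC6 (0.00780) and PSMF1 (0.0146). Quantile normalization gave PSMB6 (0.0197), PSMC5 (0.00928), PSMC6 (0.0295), PSME3 (0.00611) and PSMF1 (0.0315). PSMB6 was at 0.130 with array weights. With 1 library left out, the ranges were -0.0702 to 0.353 for PSMA2, -0.300 to 0.152 for PSMB6, -0.148 to 0.0573 for PSMC5, -0.102 to 0.0629 for PSMC6, -0.287 to 0.0193 for PSMD11, -0.0353 to 0.129 for PSMD14, -0.0264 to 0.197 for PSMD2, -0.0216 to 0.183 for PSMD6, -0.280 to 0.0772 for PSME3 and -0.119 to 0.0216 for PSMF1. The cause was not tested for these values.

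With the replicate number as a block, 6 genes were called and 0 members, and PSENEN was at -1.79 with an adjusted p of 0.228. Deviations from group means correlated at -0.05, 0.01 and -0.02 for libraries 1, 2 and 3 of the same number. Not every library correlated best with its own number. Between libraries of different numbers the correlations ranged from -0.04 to 0.05. Deviations within a group sum to 0, which ties these correlations to one another. Whether libraries of the same number were prepared together was not tested.

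The deposited values hold no counts, so differences in low members such as PSMB11 cannot be given a counting error, and depth was lower on average in PSENEN siRNA libraries.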
